A study of Mus musculus with 6 samples.

Results

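The matrix metalloproteinase genes (Mmp), the genes of their tissue inhibitors (Timp) and the related Adam and Adamts protease genes were followed in primary mouse Sertoli cells. The members were every gene whose symbol is Mmp, Timp, Adam or Adamts followed by a digit and that a probe of the array named through its RefSeq accession. The rule itself used no measured value, but it was set with earlier results of these data known. The rule found 69 of the 16535 genes with a named probe: 21 Mmp, 4 Timp, 30 Adam and 14 Adamts genes. A gene counted as detected where, in 1 or more of the treatment groups, the scanner software called the same probe of it well above background on both arrays. That held for 53 members (15 Mmp, 4 Timp, 23 Adam and 11 Adamts) among 14236 genes tested. Each detected gene is given by its brightest detected probe. The 16 members not detected were Mmp8, Mmp9, Mmp16, Mmp20, Mmp25, Mmp28, Adam6a, Adam7, Adam12, Adam22, Adam24, Adam29, Adam39, Adamts13, Adamts19 and Adamts20.

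Enzymes of these 4 families shape the extracellular matrix and the cell surface. MMPs are made as inactive zinc proteases, are switched on by removal of their propeptide, and cut collagens, laminin, fibronectin and proteoglycans. TIMPs bind the active site and block it, with overlapping preferences for MMPs, ADAMs and ADAMTS enzymes. ADAMs are mostly membrane-bound: some shed growth factors, Notch ligands and cytokines from the cell surface, and a large group is made in male germ cells and acts on sperm. ADAMTS enzymes are secreted and cut aggrecan, versican, procollagens and fibrillin-linked proteins. In the seminiferous tubule, proteases and inhibitors made by Sertoli cells take part in remodelling of the basement membrane and of the junctions between Sertoli and germ cells. Several Mmp promoters are textbook targets of AP-1 and ETS factors, which the MEK and ERK kinases control.

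The cells came from C57BL/6J mice and grew in F12/DMEM with insulin at 10 µg/ml, transferrin at 5 µg/ml and epidermal growth factor at 5 ng/ml, at 34 °C. All 3 groups shared this medium, so the vehicle cells also received a ligand of the EGF receptor. From day 5 they were kept for 24 h with vehicle, with 20 ng basic fibroblast growth factor (bFGF, a ligand that signals through MEK and ERK among other routes; the labels give no volume) or with 10 µM PD0325901, an inhibitor of the kinases MEK1 and MEK2. Each group had 2 arrays, 6 in all, and the comparisons asked how the inhibitor and the growth factor each changed expression against vehicle. Donor age is not stated, nor is it stated that the 2 samples of a group were separate cultures or animals. The p-values below therefore rest on the spread between the samples as given, and this spread may be technical only.

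Levels are log2 of the processed spot signal minus log2 of the same array's 75th percentile, so that 0 is the 75th percentile and 1 unit is a doubling. Probes differ in how strongly they bind, so a level is compared between arrays and never between genes. A difference is the treated mean minus the vehicle mean, given ± its standard error from limma, with n = 2 arrays a group throughout. A gene is called, or said to rise or fall, where limma's p-value, adjusted by Benjamini and Hochberg over the 14236 genes, was under 0.05. The 75th percentile of the signal was 1464 to 1613 on the 6 arrays, and no spot was saturated. Between 64.9% and 66.6% of probes were well above background on the vehicle and PD0325901 arrays, and 75.6% and 75.9% on the bFGF arrays, so more dim genes were measurable with bFGF. The 2 arrays of a group lay on 1 slide that held no other group, so an effect of slide and an effect of treatment cannot be told apart. Without bFGF replicate 2 limma called 0 of the 14236 genes against vehicle, where 3722 had an unadjusted p under 0.05, so no bFGF call below was kept without that array. All 14 listed Sertoli markers were detected, Sox9 and Dhh among them. Markers of macrophages, myoid cells, fibroblasts, endothelium, germ cells and Leydig cells were detected too, while Tek and Lhcgr were not. These cultures were bulk samples: fewer cells of a type and less RNA per cell cannot be told apart.

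The promoters of 4 neighbouring Mmp genes are shown because these genes differed in their response to PD0325901: Mmp3, Mmp10 and Mmp13 fell and Mmp12 rose. RefSeq windows of the GRCm38.p6 build run from 250 bases before to 50 bases after a gene's start, and 40 of the 69 members have one. The stretches below are the 250 bases before the start, 5′ to 3′ on the plus strand, with the AP-1 letters in capitals. They lie at chr9:7445572-7445821 for Mmp3, chr9:7502092-7502341 for Mmp10, chr9:7272264-7272513 for Mmp13 and chr9:7347124-7347373 for the second of the windows listed for Mmp12.
Mmp3: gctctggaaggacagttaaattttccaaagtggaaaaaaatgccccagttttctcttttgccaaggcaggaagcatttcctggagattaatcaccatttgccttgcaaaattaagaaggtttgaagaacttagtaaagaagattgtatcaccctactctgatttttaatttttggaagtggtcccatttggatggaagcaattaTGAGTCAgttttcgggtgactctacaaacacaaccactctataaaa
Mmp10: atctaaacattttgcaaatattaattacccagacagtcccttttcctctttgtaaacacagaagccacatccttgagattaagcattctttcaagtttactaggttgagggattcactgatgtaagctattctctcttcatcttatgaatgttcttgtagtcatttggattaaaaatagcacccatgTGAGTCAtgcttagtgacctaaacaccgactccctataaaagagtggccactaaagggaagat
Mmp13: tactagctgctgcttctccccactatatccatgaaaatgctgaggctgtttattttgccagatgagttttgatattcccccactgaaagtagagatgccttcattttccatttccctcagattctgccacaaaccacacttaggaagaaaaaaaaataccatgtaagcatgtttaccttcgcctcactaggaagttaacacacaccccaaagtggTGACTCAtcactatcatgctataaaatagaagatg
Mmp12: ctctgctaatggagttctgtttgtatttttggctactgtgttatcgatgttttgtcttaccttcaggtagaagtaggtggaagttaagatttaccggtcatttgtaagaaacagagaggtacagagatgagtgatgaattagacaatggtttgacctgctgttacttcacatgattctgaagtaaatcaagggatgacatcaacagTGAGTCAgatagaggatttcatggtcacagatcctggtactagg
A stretch was printed only where it held the AP-1 letters, so their presence here was fixed by that choice. No other window of Mmp12 held them. Each printed stretch held them once. The first letter lay 46 bases before the start in Mmp3, 63 in Mmp10, 35 in Mmp13 and 44 in Mmp12. In Mmp3, Mmp10 and Mmp13 the TATA letters followed closer to the start, and the Mmp12 stretch printed here did not hold them. Both strands of the whole 300-base window were searched. The AP-1 letters were TGACTCA, which the opposite strand shows as TGAGTCA. The letters of PEA3, a motif of ETS factors, were AGGAAG, which the opposite strand shows as CTTCCT. The TATA letters were TATAAA, which the opposite strand shows as TTTATA. No member window held 2 of these motifs in overlap. AP-1 letters stood in 5.20% of the 32851 windows of all genes and in 9 of the 45 windows of the 40 members with a window. These 9 belonged to Mmp1a, Mmp3, Mmp7, Mmp10, Mmp12, Mmp13, Adam1b, Adam19 and Adam29. PEA3 letters stood in 35.4% of all windows and in 20 of the 45 member windows, which belonged to 19 of the 40 members. TATA letters stood in 13.6% of all windows and in 13 of the 45 member windows, which belonged to 13 of the 40 members. A match describes these letters in this window and is not a shown binding site. Of the 8 detected members with AP-1 letters, 4 fell with PD0325901, 2 rose and 2 were not called. Of the 23 detected members whose window lacked them, 10 fell, 6 rose and 7 were not called. Over all 14236 genes tested, 29.3% fell and 24.1% rose with PD0325901.

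PD0325901 moved the families in both directions at once. Among the 53 detected members 14 rose and 19 fell against vehicle, or 26.4% and 35.8%. Over all 14236 genes 24.1% rose and 29.3% fell, so these shares lie near the background. The members' differences were larger: the median size was 0.61 on the log2 scale over members and 0.30 over all genes tested, while the signed medians were -0.14 and -0.05. Members were also more often dim: 21 of the 53 had a mean level under -4, against 3160 of the 14236 genes. The part of brightness in this size was not tested. Of the calls, 13 rises and 14 falls were measured above background on all 4 arrays, and 3 of the falls (Adam4, Adam25 and Adamts12) were in genes not well above background in either group. A fitted difference of at least 1 log2 unit was seen for 5 risen and 7 fallen members. Adamts12 was among the latter, although a fall below background in both groups cannot be sized. Normexp background correction shrank its fitted PD0325901 difference from -1.60 to -0.27 with the call kept. The balance of calls turned in 5 of the 15 alternatives: to 16 higher and 14 lower under quantile normalization, to 16 and 15 with probes above background on all 6 arrays, and to 17 and 15 with only the 2 compared groups in the fit or without either bFGF array. By family, 3 of the 4 Timp genes fell, 6 of the 15 Mmp genes fell and 3 rose, 6 of the 23 Adam genes went each way, and 5 of the 11 Adamts genes rose and 4 fell.

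**Figure D1:**
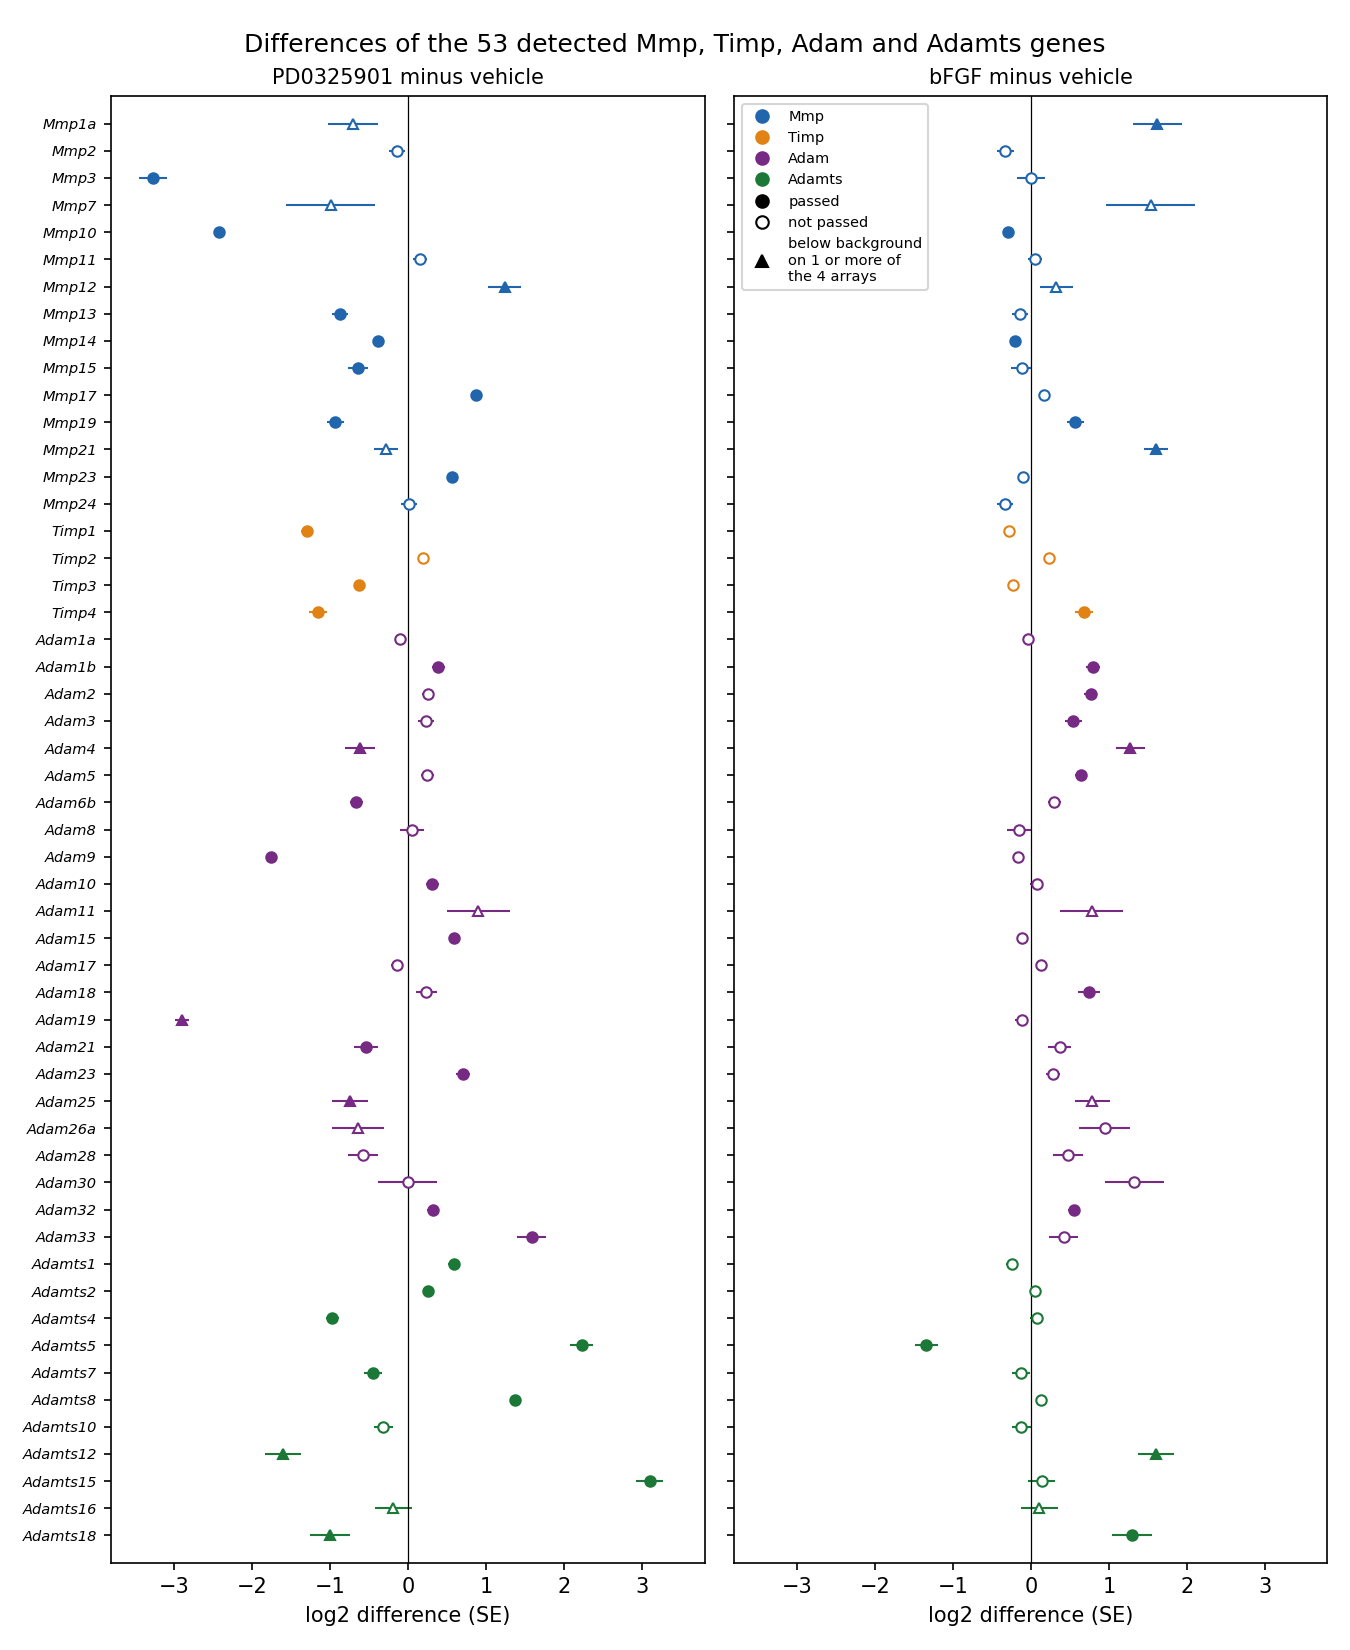
Differences from vehicle on the log2 scale (horizontal axis) for the 53 detected members, with PD0325901 on the left and bFGF on the right; bars are standard errors from limma with n = 2 arrays a group. Filled symbols passed adjusted p under 0.05, open symbols did not, and triangles were below background on at least 1 of the 4 arrays; Mmp3 at -3.27 and Adamts15 at 3.096 mark the extremes with PD0325901.

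The stromelysins gave the deepest falls among the Mmp genes. Mmp3, stromelysin 1, which cuts proteoglycans, laminin and fibronectin and activates other MMPs, stood at -1.15 and -1.21 on the vehicle arrays, -1.31 and -1.06 with bFGF, and -4.22 and -4.68 with PD0325901. The vehicle and bFGF arrays overlapped, and both PD0325901 arrays lay far below them. Its difference with PD0325901 was -3.27 ± 0.18, a 9.63-fold fall with limma adjusted p = 0.000415. With bFGF the difference was 0.00 ± 0.18 (limma adjusted p = 0.996).

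Mmp10, stromelysin 2, a close relative of Mmp3 with a like substrate range, stood at -0.70 and -0.74 on the vehicle arrays, -0.96 and -1.06 with bFGF, and -3.16 and -3.12 with PD0325901. The 3 groups did not overlap: vehicle was highest, bFGF slightly lower and PD0325901 lowest. The fall with PD0325901 was -2.42 ± 0.05, or 5.35-fold (limma adjusted p = 7.59e-05). With bFGF Mmp10 also fell, by a small -0.29 ± 0.05 (limma adjusted p = 0.03), but leaving out any single array ended that call, with adjusted p from 0.0639 without vehicle replicate 2 to 0.126 without bFGF replicate 2. The falls of Mmp3 and Mmp10 with PD0325901 passed in all 15 alternatives tried.

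Of the collagenases, Mmp13 fell with PD0325901 and Mmp1a was measurable with bFGF only. Mmp13, collagenase 3, which cuts fibrillar collagen, stood at -4.22 and -4.45 on the vehicle arrays, -4.48 and -4.47 with bFGF, and -5.11 and -5.29 with PD0325901. The bFGF arrays lay just below vehicle and the PD0325901 arrays further down. The PD0325901 fall was -0.87 ± 0.10 (limma adjusted p = 0.00324). Normexp background correction kept the call and shrank the fall to -0.32. Mmp1a, a rodent counterpart of interstitial collagenase, was well above background on the bFGF arrays only, at -6.33 and -6.04. Against the vehicle background it was at least 1.03-fold higher with bFGF (limma adjusted p = 0.0359), a call kept in 7 of 14 alternatives and lost without either bFGF or either PD0325901 array. Normexp correction shrank its fitted difference from 1.62 to 0.31. Such a bound sets the bright group's mean against the lowest signal well above background on each array of the dim group; that floor is not a strict limit of detection.

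Mmp12, macrophage elastase, was among the few Mmp genes that rose with PD0325901, and stood at -5.88 and -5.91 on the vehicle arrays, -5.88 and -5.26 with bFGF, and -4.68 and -4.62 with PD0325901. Vehicle replicate 1 was not well above background, the first bFGF array lay within the vehicle range, and both PD0325901 arrays were higher. The rise was 1.24 ± 0.21 (limma adjusted p = 0.00933). It missed the threshold without PD0325901 replicate 2 (adjusted p = 0.0512), and normexp correction shrank it to 0.51 with the call kept. The summed level of the 9 detected macrophage markers was 12.8 to 13.9 with vehicle and 8.80 to 9.01 with PD0325901. It is on a linear scale where 1 is the array's 75th percentile. Lyz2, with the highest signal of the 9, weighs most in this sum. Its log2 level was 3.26 and 3.08 with vehicle and 2.47 and 2.43 with PD0325901. Of these 9 markers 5 fell, 1, Cd163, rose, and Csf1r, Adgre1 and Cd14 were not called. Over all genes tested 29.3% fell and 24.1% rose. The part of the macrophage markers in the Mmp12 value was not tested.

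Membrane-type MMPs, which act at the cell surface, differed in direction. Mmp14 (MT1-MMP), which activates pro-MMP2 and cuts collagen around the cell, stood at 5.11 and 5.15 on the vehicle arrays, 4.90 and 4.94 with bFGF, and 4.74 and 4.75 with PD0325901. The 3 groups were separate and close together. It fell by 0.38 ± 0.04 with PD0325901 (limma adjusted p = 0.00248) and by 0.21 ± 0.04 with bFGF (limma adjusted p = 0.0363), and the bFGF call was kept in 5 of 15 alternatives and lost on leaving out any single array or under quantile normalization, which gave -0.14. Mmp15 (MT2-MMP) differed by -0.64 ± 0.13 with PD0325901 (limma adjusted p = 0.0155), a call that ended under quantile normalization and without either PD0325901 array, and that normexp correction shrank to -0.25. Mmp17 (MT4-MMP), which is held in the membrane by a lipid anchor, went the other way, at -2.53 and -2.48 on the vehicle arrays, -2.33 and -2.34 with bFGF, and -1.59 and -1.68 with PD0325901. Its PD0325901 arrays lay above all others, with a rise of 0.87 ± 0.05 (limma adjusted p = 0.000459). Mmp24 (MT5-MMP) was not called, at 0.01 ± 0.10 with PD0325901 and -0.34 ± 0.10 with bFGF.

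Of the other Mmp genes, Mmp19, a secreted MMP found in many tissues, stood at -4.67 and -4.86 on the vehicle arrays, -4.21 and -4.18 with bFGF, and -5.58 and -5.81 with PD0325901. The 3 groups were separate, with bFGF above and PD0325901 below vehicle. It fell by 0.93 ± 0.11 with PD0325901 (limma adjusted p = 0.003) and rose by 0.57 ± 0.11 with bFGF (limma adjusted p = 0.0339). The bFGF call was kept in 6 of 15 alternatives and lost on leaving out any single array. Quantile normalization and normexp correction shrank the bFGF rise to 0.37 and 0.23 and ended its call, and normexp correction shrank the PD0325901 fall to -0.42. Mmp23, a membrane MMP with an unusual propeptide, rose by 0.57 ± 0.05 with PD0325901 (limma adjusted p = 0.00156). The gelatinase Mmp2 was not called, with differences of -0.14 ± 0.11 for PD0325901 and -0.33 ± 0.11 for bFGF. Mmp11, stromelysin 3, which furin activates inside the cell, was not called either, at 0.16 ± 0.09 and 0.05 ± 0.09. Mmp7, matrilysin, and Mmp21 were dim: Mmp7 was above background on 1 vehicle array and on both bFGF arrays and passed in neither comparison, and Mmp21 was above background with bFGF only. The Mmp21 call with bFGF (limma adjusted p = 0.0105, lost without bFGF replicate 2, with the fitted difference of 1.60 shrinking to 0.24 under normexp correction) has no fold, since its bFGF level lay below the lowest measurable vehicle signal.

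The inhibitors fell with PD0325901 in 3 of 4 cases. Timp1, a secreted inhibitor of most MMPs and a known early response gene, stood at 6.89 and 6.85 on the vehicle arrays, 6.52 and 6.66 with bFGF, and 5.61 and 5.52 with PD0325901. Both PD0325901 arrays lay below every other array. Its fall was -1.30 ± 0.07, or 2.46-fold (limma adjusted p = 0.00036). The bFGF arrays were also below vehicle, at -0.28 ± 0.07, without passing (limma adjusted p = 0.0539).

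Timp3, the inhibitor that binds to the matrix and also blocks ADAM17 and ADAMTS4 and 5, stood at 5.09 and 5.21 on the vehicle arrays, 4.97 and 4.88 with bFGF, and 4.52 and 4.53 with PD0325901. The groups were separate, with PD0325901 lowest. It fell by 0.63 ± 0.06 with PD0325901 (limma adjusted p = 0.00176), and the bFGF difference of -0.23 ± 0.06 did not pass. Timp4, a TIMP of narrow tissue range, was dim and stood at -4.22 and -4.50 on the vehicle arrays, -3.76 and -3.59 with bFGF, and -5.48 and -5.55 with PD0325901. Here bFGF was highest and PD0325901 lowest, with no overlap. Timp4 fell by 1.16 ± 0.11 with PD0325901 (limma adjusted p = 0.00191) and rose by 0.68 ± 0.11 with bFGF (limma adjusted p = 0.0266); the bFGF call was kept in 7 of 15 alternatives and lost without vehicle replicate 2, either bFGF array or either PD0325901 array, and normexp correction shrank the PD0325901 fall to -0.51 and the bFGF rise to 0.38. Timp2, which blocks MMPs and with MT1-MMP also helps to activate MMP2, differed by 0.19 ± 0.06 and 0.23 ± 0.06 and was called in neither comparison.

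**Figure D2:**
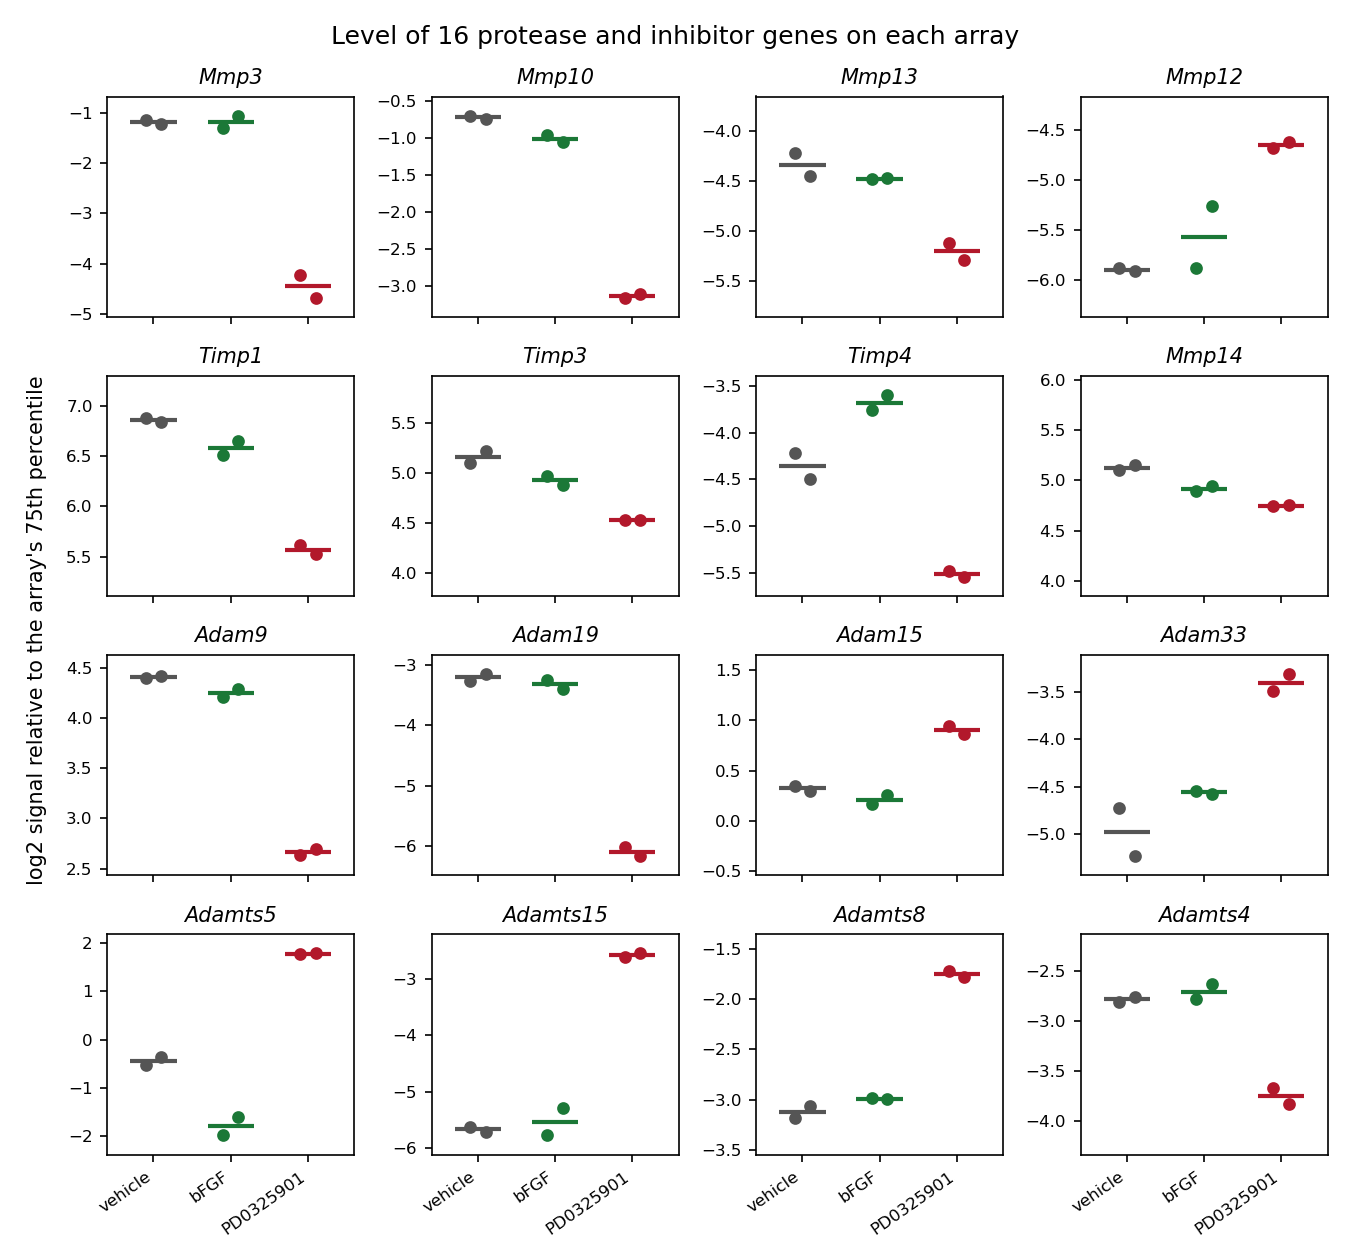
Level on each of the 6 arrays (points, 2 a group) with the group mean (bars) for 16 members, as log2 signal relative to the array's 75th percentile; each panel has its own vertical range. Mmp3, Mmp10, Timp1, Adam9 and Adam19 are lowest on the PD0325901 arrays, and Adamts5, Adamts15, Adamts8 and Adam33 are highest there.

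Genes that activate or restrain MMPs outside these families, a list of 20 of which 16 were detected, had 5 higher, 8 lower and 3 not called with PD0325901. Of all genes tested 24.1% were higher and 29.3% lower. Serpinb2, which encodes the plasminogen activator inhibitor PAI-2, was at least 55.4-fold lower, its PD0325901 arrays being not well above background. The matrix protein thrombospondin 1 (Thbs1, difference -2.83 ± 0.09), the protease inhibitor Tfpi2 (at least 2.85-fold lower), the urokinase receptor Plaur (-1.89 ± 0.04) and the broad protease inhibitor A2m (-1.49 ± 0.12) fell as well. The proteoglycan Spock2 rose by 1.67 ± 0.06. Reck, a membrane-anchored inhibitor of MMPs, fell by 0.46 ± 0.07, and Furin, the convertase that removes several MMP, ADAM and ADAMTS propeptides, rose by 0.39 ± 0.08. With bFGF 3 of the 16 rose and 1 fell, against 12.6% and 7.28% of all genes. Serpinb2, Spock2 and Plaur were higher, and Serpine2, which encodes protease nexin 1, fell by 1.05 ± 0.06.

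Among the broadly expressed Adam genes, Adam9 and Adam19 fell most with PD0325901. Adam9, a membrane protease with an active metalloproteinase domain that can shed cell-surface proteins, stood at 4.40 and 4.43 on the vehicle arrays, 4.22 and 4.29 with bFGF, and 2.64 and 2.69 with PD0325901. The vehicle and bFGF arrays lay close together, and both PD0325901 arrays stood far below. The fall was -1.75 ± 0.05, or 3.36-fold, with limma adjusted p = 9.82e-05. With bFGF the difference was -0.16 ± 0.05 and did not pass.

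Adam19, meltrin beta, which can shed neuregulin, stood at -3.26 and -3.15 on the vehicle arrays, -3.25 and -3.39 with bFGF, and -6.03 and -6.17 with PD0325901. One PD0325901 array was not well above background, and both lay far below the other 4. The fall was -2.89 ± 0.08 (limma adjusted p = 0.000113). The other detected Adam19 probes gave differences of -3.77 and -0.89, and normexp correction shrank the fall to -1.42, so its direction was shared and its size was not. Over all members, 16 of 17 further detected probes had the sign of the probe used with PD0325901, the exception being Adam17, whose difference was small. With bFGF 14 of the 17 did, and Adam1a, Adam19 and Adamts2 had probes of the other sign, none of the 3 genes being called there.

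The main sheddases moved little. Adam17, which releases TNF and most EGF receptor ligands, stood at 0.98 and 0.90 on the vehicle arrays, 1.14 and 1.003 with bFGF, and 0.84 and 0.75 with PD0325901. The 3 groups were separate but close together, and the differences of -0.14 ± 0.07 with PD0325901 and 0.13 ± 0.07 with bFGF did not pass. Adam10, which sheds Notch receptors, cadherins and betacellulin, rose by 0.31 ± 0.08 with PD0325901 (limma adjusted p = 0.034), a call lost without vehicle replicate 1 or either PD0325901 array. Adam15, a disintegrin with an integrin-binding motif, rose by 0.58 ± 0.05 (limma adjusted p = 0.00162), and Adam8, known from leukocytes, was not called at 0.05 ± 0.16. Adam23, which has lost protease activity and acts as an adhesion receptor, rose by 0.71 ± 0.09 (limma adjusted p = 0.00389). Adam33, known from smooth muscle and mesenchyme, stood at -4.73 and -5.24 on the vehicle arrays, -4.55 and -4.58 with bFGF, and -3.49 and -3.31 with PD0325901. Both PD0325901 arrays were above the other 4, with a rise of 1.59 ± 0.19 (limma adjusted p = 0.00304) that normexp correction reduced to 0.89. A further Adam33 probe, above background on 4 arrays, did not separate the groups in this way. It stood at -6.04 and -5.24 with bFGF and -5.89 and -6.00 with PD0325901. Its differences from vehicle were 1.19 with bFGF and 0.88 with PD0325901.

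Of the partners that carry ADAM10 and ADAM17 to the surface, a list of 10 with 8 detected, 5 rose with PD0325901, 1 fell and 2 were not called. The shares over all genes tested were 24.1% higher and 29.3% lower. Rhbdf2, the rhomboid-like protein iRhom2 that matures ADAM17, rose by 0.97 ± 0.07 (limma adjusted p = 0.000964) and fell by 0.35 ± 0.07 with bFGF. The tetraspanins Tspan17, Tspan5, Tspan33 and Tspan15, which bind ADAM10, rose by 0.56 ± 0.04, 0.51 ± 0.04, 0.39 ± 0.12 and 0.37 ± 0.06 with PD0325901. Rhbdf1, or iRhom1, fell by 0.30 ± 0.05.

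The ligands that ADAMs release were lower with PD0325901 in 10 of 11 detected cases on a list of 12, and higher in 1. Among all genes tested 29.3% were lower and 24.1% higher. The EGF receptor ligands epiregulin (Ereg) and amphiregulin (Areg) were at least 5.77-fold and at least 5.28-fold lower, neither being well above background with PD0325901. The Notch ligand Jag1 fell by 1.69 ± 0.07, Egf fell by 1.05 ± 0.09, and epigen (Epgn) was at least 1.32-fold lower. Hbegf, heparin-binding EGF-like growth factor, was the member of the list that rose, by 0.42 ± 0.04. Tnf was below background in both groups, so its call carries no fold. With bFGF 5 of the 11 rose, against 12.6% of all genes tested. Ereg and Areg were among these 5, at 0.85 ± 0.17 and 0.75 ± 0.12.

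Of the Adam genes known from sperm and testis, a grouping by known role and not a list with a test, some were called higher with bFGF and others were not called. Adam2, which encodes fertilin beta, stood at -1.50 and -1.58 on the vehicle arrays, -0.86 and -0.69 with bFGF, and -1.33 and -1.22 with PD0325901. Both bFGF arrays lay above the other 4, with a difference of 0.76 ± 0.08 (limma adjusted p = 0.0119). Adam1b, which encodes the alpha partner of fertilin on sperm, rose by 0.80 ± 0.09 (limma adjusted p = 0.0133). Adam18, Adam5, Adam32 and Adam3, all known from spermatogenic cells, rose by 0.74 ± 0.14, 0.64 ± 0.08, 0.55 ± 0.07 and 0.54 ± 0.11. The calls of Adam1b, Adam2 and Adam32 were lost without bFGF replicate 2 and in no other alternative; that of Adam5 was also lost without vehicle replicate 2, and those of Adam3 and Adam18 were kept in 7 and 8 of 15. The Adam3 call was lost on leaving out any single array, and the Adam18 call on leaving out any array but bFGF replicate 1. Adam4, another testis Adam gene, was above background with bFGF only and has no fold, its bFGF level lying under the vehicle floor. Its call too was lost on leaving out any array but bFGF replicate 1, and under quantile normalization and normexp correction. Testis genes not called with bFGF were Adam1a at -0.04 ± 0.05, Adam6b at 0.30 ± 0.09, Adam21 at 0.37 ± 0.15, Adam26a at 0.94 ± 0.33 and Adam30 at 1.32 ± 0.38. Adam25, at 0.79 ± 0.23, was not called either. It entered the test only through the bFGF arrays, so the filter favoured a higher value there.

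With PD0325901 Adam1b and Adam32 rose by 0.39 ± 0.09 and 0.32 ± 0.07, each call being lost without vehicle replicate 1 or PD0325901 replicate 1, and without vehicle replicate 2 for Adam1b or PD0325901 replicate 2 for Adam32, while Adam2, Adam3, Adam5 and Adam18 were not called. Adam6b and Adam21, also testis Adam genes, fell by 0.66 ± 0.09 and 0.54 ± 0.15 with PD0325901; the Adam21 call was kept in 7 of 15 alternatives and lost without either bFGF array or either PD0325901 array. The Adam21 fall shrank to -0.28 under quantile normalization and -0.16 under normexp correction, both without passing, and to -0.33 without vehicle replicate 1, and normexp correction shrank the Adam6b fall to -0.31. Adam4 and Adam25 were called lower although below background in both groups, so no fall can be sized for them; normexp correction ended both calls. The other detected Adam genes, Adam1a, Adam11, Adam26a, Adam28 and Adam30, were called in neither comparison.

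Some germ cell markers were also higher with bFGF. Of the 9 detected, 3 rose, Ldhc by 0.69 ± 0.14, Ddx4 by 0.50 ± 0.08 and Sycp3 by 0.27 ± 0.06. Among all genes tested 12.6% rose with bFGF. Dazl, Tnp1 and Tnp2 had positive differences that did not pass, and Prm1 and Prm2 stood at -0.15 ± 0.19 and -0.15 ± 0.54. Acrv1 did not pass either. It entered the test only through the bFGF arrays, so the filter favoured a higher value there. The summed linear level of the 9 was 13.0 to 14.9 with vehicle, 19.6 to 24.2 with bFGF and 16.2 to 16.4 with PD0325901, and Ldhc alone made 10.9 to 12.8, 17.1 to 21.4 and 14.0 to 14.2 of it. The other 8 summed to 2.04 to 2.07, 2.47 to 2.77 and 2.17 to 2.18. With PD0325901 Sycp3 rose by 0.20 ± 0.06, Prm1 and Tnp1 fell by 0.80 ± 0.19 and 0.49 ± 0.09, and 6 were not called. The inhibitor raised 24.1% and lowered 29.3% of all genes tested. The part of these markers in the Adam values was not tested.

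Adamts15 and Adamts5 had the 2 largest rises among the members with PD0325901. Adamts5, aggrecanase 2, which cuts aggrecan and versican, stood at -0.53 and -0.36 on the vehicle arrays, -1.98 and -1.60 with bFGF, and 1.77 and 1.78 with PD0325901. The groups were far apart, with bFGF lowest, vehicle between and PD0325901 highest. Its rise with PD0325901 was 2.23 ± 0.15, or 4.68-fold (limma adjusted p = 0.000629), and it passed in all 15 alternatives. With bFGF it fell by 1.34 ± 0.15, or 2.53-fold (limma adjusted p = 0.0129). Without bFGF replicate 2, where limma called no gene at all, that fall was -1.53 (limma adjusted p = 0.0535). Both comparisons use the same vehicle arrays.

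Adamts15, another aggrecan-cutting member, stood at -5.62 and -5.72 on the vehicle arrays, -5.78 and -5.28 with bFGF, and -2.61 and -2.54 with PD0325901. The vehicle and bFGF arrays overlapped and lay near background, and both PD0325901 arrays were far above them. The rise was 3.096 ± 0.17, or 8.55-fold (limma adjusted p = 0.000442), the largest among the members, and normexp correction reduced it to 1.80. Adamts8, a further member of the aggrecan and versican cutting branch, stood at -3.18 and -3.06 on the vehicle arrays, -2.99 and -3.00 with bFGF, and -1.72 and -1.77 with PD0325901. Both PD0325901 arrays lay above the other 4, with a rise of 1.37 ± 0.06 (limma adjusted p = 0.000225). Adamts1, which cuts versican and is best known from the ovulating follicle, rose by 0.59 ± 0.07 (limma adjusted p = 0.00304).

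Adamts4, aggrecanase 1, was the member of that branch that fell, and stood at -2.81 and -2.76 on the vehicle arrays, -2.78 and -2.63 with bFGF, and -3.67 and -3.83 with PD0325901. The bFGF and vehicle arrays overlapped and both PD0325901 arrays were lower, by -0.97 ± 0.08 (limma adjusted p = 0.00131). Normexp correction reduced the fall to -0.61. Of the 5 detected aggrecan and versican cutting genes, Adamts1, Adamts5, Adamts8 and Adamts15 therefore rose and Adamts4 fell. Among the listed substrates that could be measured, aggrecan itself (Acan) was not called, at 0.27 ± 0.09. Fibronectin (Fn1) fell by 1.11 ± 0.08, the hyaluronan receptor Cd44 by 0.96 ± 0.04 and the surface proteoglycan syndecan 4 (Sdc4) by 0.58 ± 0.06. Elastin (Eln) and fibrillin 1 (Fbn1) rose by 1.01 ± 0.14 and 0.62 ± 0.08. The whole list of 12 substrates had 11 detected, with 4 higher, 4 lower and 3 not called, against 24.1% higher and 29.3% lower over all genes.

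The remaining Adamts genes split. Adamts2, which removes the amino-terminal propeptide of fibrillar procollagens, rose by 0.26 ± 0.05 with PD0325901 (limma adjusted p = 0.012), a call lost without PD0325901 replicate 1. Adamts7, which cuts cartilage oligomeric matrix protein, fell by 0.45 ± 0.11 (limma adjusted p = 0.0298), a call kept in 10 of 15 alternatives and lost without either bFGF or either PD0325901 array; without vehicle replicate 2 the fall was -0.29. Adamts18 stood at -5.43 and -5.83 on the vehicle arrays, -4.39 and -4.29 with bFGF, and -6.30 and -6.96 with PD0325901. It was above background on 1 of the PD0325901 arrays, fell by 0.997 ± 0.26 with PD0325901 (limma adjusted p = 0.0318) and rose by 1.29 ± 0.26 with bFGF (limma adjusted p = 0.0374); each call was kept in 8 of 14 alternatives. The PD0325901 call was lost without vehicle replicate 1, PD0325901 replicate 2 or either bFGF array, the bFGF call without either vehicle or either bFGF array, and quantile normalization ended both. Normexp correction shrank the PD0325901 fall to -0.25 and the bFGF rise to 0.58. Adamts12 was above background with bFGF only, where it was at least 2.19-fold higher than vehicle (limma adjusted p = 0.0207, lost under quantile normalization and without either bFGF or either PD0325901 array). Normexp correction shrank its fitted bFGF difference from 1.60 to 0.45 on the log2 scale, a size below that bound, with the call kept. Adamts10, a fibrillin-linked member, was not called, at -0.32 ± 0.12 with PD0325901. Adamts16 was not called either. It was not well above background with vehicle or PD0325901, so no difference between them can be sized. Relatives without the family name, 7 detected of 15 listed, had 1 higher and 3 lower with PD0325901, against 24.1% and 29.3% of all genes. Adamtsl4, a secreted protein like ADAMTS but without the protease, differed by 1.50 ± 0.14 and the membrane peptidase Mme by -0.69 ± 0.05.

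Markers of neighbouring cell types also differed with PD0325901. The summed linear level of 6 myoid markers was 56.5 to 61.3 with vehicle and 85.9 to 86.7 with PD0325901, with 5 of 6 called higher. For the 7 fibroblast and stromal markers it was 39.2 on both vehicle arrays and 64.0 and 65.0 with PD0325901, with 5 called higher. For the 5 detected endothelial markers it was 1.20 to 1.25 and 0.467 to 0.525, with all 5 called lower. Of the 14 Sertoli markers 5 rose, 5 fell and 4 were not called. Beside these marker counts, 24.1% of all genes tested rose and 29.3% fell with PD0325901. Whether these shifts take part in the Adam33, Adamts or Timp values was not tested.

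Genes that lie next to each other did not move as 1 block. The RefSeq table places Mmp13, Mmp12, Mmp1b, Mmp3, Mmp1a, Mmp10, Mmp8, Mmp27, Mmp20 and Mmp7 in that order on chromosome 9, of which 8 had a named probe and 6 were detected. With PD0325901 Mmp13, Mmp3 and Mmp10 fell, their neighbour Mmp12 rose, and Mmp1a and Mmp7 were not called. Of these 10 genes 7 had AP-1 letters, 9 TATA letters and 7 PEA3 letters in any of their windows, the risen Mmp12 among them. For Mmp12 these letters did not all stand together. Its printed stretch held the AP-1 letters and neither TATA nor PEA3 letters. On chromosome 8 the table lists Adam18, Adam3, Adam5, Adam32 and Adam9 in a row. The first 4, testis genes, rose with bFGF, and Adam9 next to them was the one that fell with PD0325901.

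**Figure D3:**
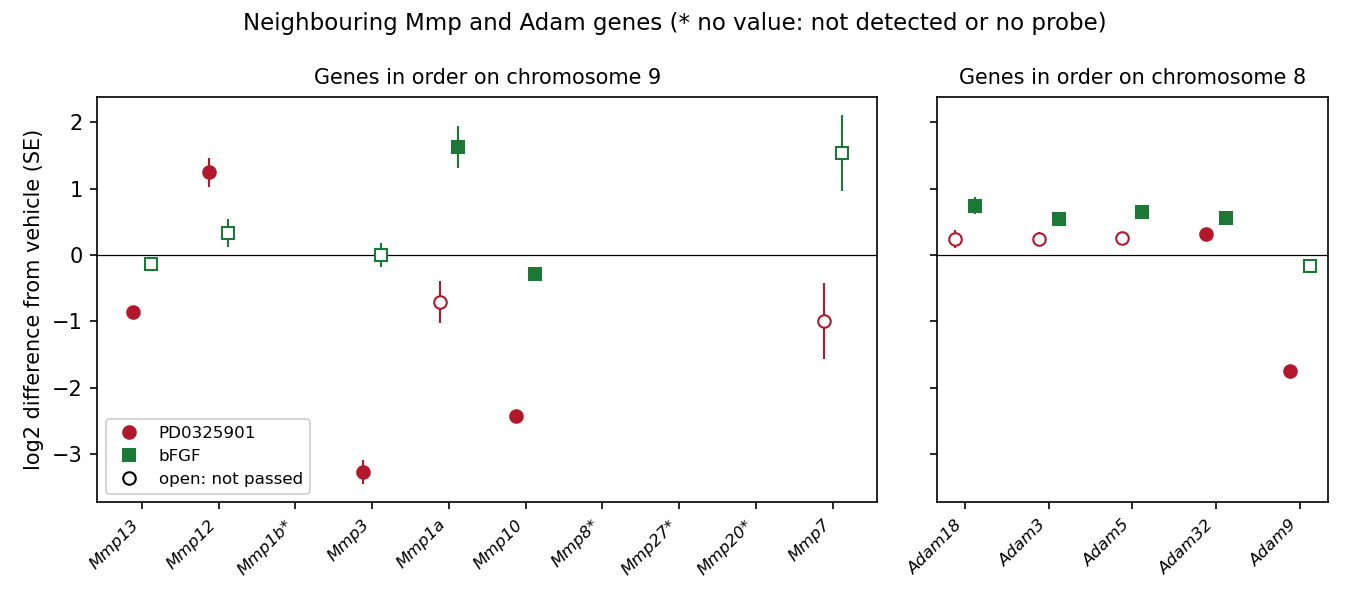
Differences from vehicle on the log2 scale with standard errors (n = 2 arrays a group) for the 10 neighbouring Mmp genes on chromosome 9 and the 5 neighbouring Adam genes on chromosome 8, placed in gene order and not to genomic scale. Filled symbols passed adjusted p under 0.05; Mmp12 at 1.24 stands opposite Mmp3 at -3.27 and Mmp10 at -2.42 with PD0325901.

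Across all members bFGF gave smaller and mostly upward differences. Of the 53 detected members 13 rose, 3 fell and 37 were not called, against 12.6% higher and 7.28% lower over all genes. That is 24.5% of members higher and 5.66% lower. Mmp10, Mmp14 and Adamts5 were the 3 that fell. The median difference was 0.14 over members and 0.03 over all genes, and the median size was 0.29 against 0.15. Of the 13 that rose, Mmp1a, Mmp21, Adam4 and Adamts12 entered the test only through the bFGF arrays, so the filter favoured higher values there. Adamts16 entered in the same way and was not called, with a fitted bFGF difference of 0.10 ± 0.24. The counts rest on few arrays: without bFGF replicate 2 limma called 0 members, while 19 had an unadjusted p under 0.05. Without bFGF replicate 1 they were 8 higher and 1 lower, without vehicle replicate 2 they were 7 and 1, and without either PD0325901 array, which the fit uses for its spread, they were 6 and 1. Without vehicle replicate 1 they were 12 and 2.

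The direction of the calls differed with brightness in both comparisons. With bFGF, among the 21 members with a mean level under -4, 7 rose, and over all 3160 tested genes that dim 26.4% rose and 1.58% fell. Of the 7 risen members, Mmp1a, Mmp21, Adam4 and Adamts12 entered the test only through the bFGF arrays, so the filter favoured higher values there. The same filter applied to the 3160 genes. Among the 18 members from -4 to 0, 6 rose and 2 fell, where 13.6% and 7.45% of all genes did. Of the 14 members at 0 or above the only call was the fall of Mmp14, where 5.42% of all genes rose and 9.88% fell. The sperm Adam genes Adam1b, Adam2, Adam3, Adam5, Adam18 and Adam32 make up the 6 risen members of the middle class. With PD0325901, 3 of the 21 dim members rose and 11 fell, with a median of -0.64, where 11.8% of all genes that dim rose and 31.1% fell, with a median of -0.41. So 11 of the 19 falls lay in this class. From -4 to 0, 7 members rose and 3 fell, against 30.1% and 28.2% of all genes, and at 0 or above 4 rose and 5 fell, against 25.9% and 29.1%. The part of brightness in the members' values was not tested.

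**Figure D4:**
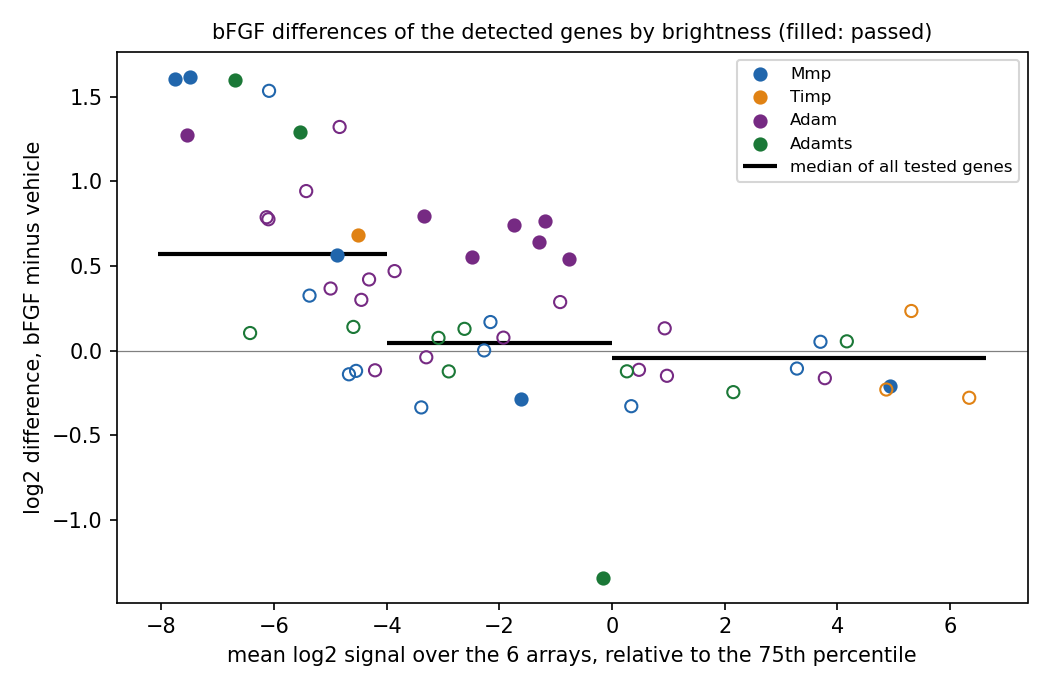
Difference between bFGF and vehicle on the log2 scale (vertical axis) against the mean level over the 6 arrays (horizontal axis) for the 53 detected members; filled points passed adjusted p under 0.05. Black lines give the median of all tested genes in each brightness class, 0.57 under -4, 0.05 from -4 to 0 and -0.04 at 0 or above, and the members' risen points lie in the dimmer classes. Of these points, Mmp1a, Mmp21, Adam4 and Adamts12 entered the test only through the bFGF arrays, and the lines include genes admitted by the same filter.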

How the data were processed

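RNA of 6 samples, 2 in each of 3 groups, was measured on 1-colour Agilent mouse arrays. The deposited scanner files hold spot intensity, which Agilent Feature Extraction 9.5.3.1 made and corrected for background, per the file headers; the submitters' processing notes give version 9.5. The authors also deposited a log2 table. It equals the scaled values below up to 1 constant per probe and 1 per array (100% of probes within 0.001). The array constants lay between -0.0077 and 0.0084. Centred on each probe's median, the scaled values correlated with the table at 1.0 on each array. The scale and centring of that table were found by these comparisons, and its column medians lay between -0.1067 and 0.0195.

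Processed signals were taken as log2 and reduced by each array's 75th percentile. Outlier spots (83 probes) were left out, and 23374 of 41174 probes (56.8%) were named through their RefSeq accession, with 97 probes for the members. A gene entered as its brightest detected probe. Groups were compared with limma 3.58.1 (lmFit and eBayes, R 4.3.3) over all 3 groups and 14236 genes, with Benjamini-Hochberg adjustment and a threshold of 0.05, and the fit was tested on simulated data. The number of arrays limits the precision.

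The members, the related gene lists and the rule for named genes were chosen with earlier results of these data known. The text names every Timp gene, every detected Mmp gene, the Adam and Adamts genes that passed with a difference of at least 0.5 in either comparison, a set of widely expressed members whatever their values, and at most 6 genes of each related list beside Reck, Furin and Rhbdf2. Acan, Adamts7, Hbegf, the marker genes and members named beside a count of 5 or fewer were picked after their values were seen. Family genes without a named probe (Adam20, Adam26b, Adam34, Adam34l, Adamts3, Adamts6, Adamts9, Adamts14, Adamts17, Mmp1b and Mmp27) were not analysed here. The alternatives were quantile normalization, normexp background correction on the median spot signal with an offset of 50 (chosen after seeing the data), the authors' table, other filters and probe rules, a replicate block, a fit of 2 groups and leaving out each array. Promoter windows came from RefSeq, build GRCm38.p6, and no coordinate of the array files was used.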

Additional observations from a re-analysis of the deposited data

How the results depend on the processing

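No called difference of a named member changed sign in any alternative, and the PD0325901 counts stayed within 1.5 times, from 13 to 20 lower and 10 to 17 higher. The bFGF counts moved. The 13 higher members became 8 under quantile normalization, 8 with probes above background on all 6 arrays, 6 with only the 2 compared groups in the fit and 0 to 12 on leaving out single arrays. The 3 lower members became 5 with probes above background on all 6 arrays, 10 without a filter, 5 with the mean of a gene's probes, 1 with only the 2 compared groups and 0 to 2 without single arrays. In the bFGF comparison Mmp3 moved around 0, to -0.0145 under quantile normalization, -0.0056 under normexp and -0.1239 to 0.1268 without single arrays. Mmp10 stayed at -0.288 without passing in the fit of 2 groups (limma adjusted p = 0.0760), and ran from -0.3344 to -0.2417 without single arrays. Adamts5 ran from -1.5343 to -1.1475. The cause of these moves was not tested, except that leaving out arrays and groups leaves fewer samples to measure the spread, and filters change which genes are tested.

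The labels number the replicates 1 and 2 in each group. Same-numbered arrays did not deviate together (correlations of -0.0774, 0.1201 and -0.1174 over genes), so the numbers were not taken to pair the arrays. With a replicate block 8 members were higher and 1 lower with bFGF, Mmp10 kept -0.288 with limma adjusted p = 0.0621, and 15 were higher and 19 lower with PD0325901. The slide as a block could not be fitted, since each slide held 1 group. Normexp on the mean spot signal was not run, as the files used here hold no such column. Members near background are limited by signal: 41 of the 53 were above it on all 6 arrays.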
